A study of Mus musculus with 8 samples.

Results

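A set of 10 genes that mark cortical astrocytes was followed through RNA-Seq libraries of the mouse temporal association cortex (TeA): Slc1a2, Slc1a3, Glul, Aqp4, Gja1, Gjb6, Gfap, Slc4a4, Aldh1l1 and Acsbg1. They were chosen by gene symbol, and all 10 of these genes were found among the 15437 genes of the count table and among the 12493 genes tested. Libraries came from sorted Arc-dVenus+ cells or from whole TeA tissue (bulk tissue) of male C57BL/6 mice, hemizygous for the Arc-dVenus transgene (Arc-dVenus +/-) and 60 to 90 postnatal days old. In these mice the promoter of the activity-induced gene Arc drives a short-lived Venus fluorescent protein, and every group carried the transgene. Fear-conditioned (FC) mice received 7 pairings of a tone and a footshock, shock-only mice received 7 footshocks without tones, and all were sacrificed 6 h later. Sorted cells made 5 libraries, called pools here by their labels: FC39, FC40 and FC23 from FC mice, and S30 and S33 from shock-only mice. Bulk tissue made 3 libraries, 1 from an FC mouse and 2 from shock-only mice. Each pool held cells from 1 animal, which were dissociated with protease and picked by hand for Venus fluorescence. The cDNA was amplified before library construction because few cells were taken. The authors report that bulk tissue received the same protease treatment. An undisturbed bulk control that the protocol also mentions was not analysed here.

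Astrocytes tile the cortical neuropil and clear what active synapses release. The transporters encoded by Slc1a2 (GLT-1) and Slc1a3 (GLAST) take up glutamate with sodium, glutamine synthetase (Glul) converts it to glutamine, and glutamine is passed back to neurons, which remake glutamate from it. Water and potassium are moved at the endfeet that wrap blood vessels, where aquaporin-4 (Aqp4) sits, and the connexins of Gja1 and Gjb6 join astrocytes into a network of coupled cells. Most of these genes are used as astrocyte markers, although transcripts of Slc1a2 have also been described in some cortical and hippocampal neurons of rodents.

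Library totals ranged from 10223586 to 24151755 counts in the pools and from 7110598 to 9846374 counts in bulk tissue. The pools missed more genes, with 1500 to 2631 genes at 0 counts against 108 to 131 in bulk tissue. The labels call all samples cortical neurons, bulk tissue included. Of 6 excitatory neuron markers, 2 rose in the pools and 0 fell, and 0 rose when libraries were scaled by their totals alone. Slc17a7, which loads glutamate into the vesicles of cortical excitatory neurons, stood at 689 to 1011 CPM in the pools, where CPM is a gene's count divided by the total of its library and brought to the same scale in all libraries. Camk2a, the kinase gene of excitatory neurons, was lower in every pool than in bulk tissue, at 3565 ± 563 CPM (SD, n = 5) against 6385 ± 406 (SD, n = 3), with a log2 fold change of -0.59 under the fold threshold (adjusted p = 0.00929 by edgeR). The 6 markers summed to 6307 to 8020 CPM in the pools and 7951 to 8947 CPM in bulk tissue. All 7 inhibitory neuron markers fell, and their summed level was 32.3 to 41.4 CPM in the pools against 652 to 663 CPM in bulk tissue. In such a comparison with bulk tissue, fewer astrocytes and less RNA per astrocyte cannot be told apart.

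Gfap had the lowest mean residue in the pools, and the glutamate transporters Slc1a2 and Slc1a3 kept different shares. The promoters of these genes are shown so that their start regions can be compared. Each window runs from 250 bases before to 50 bases after the transcription start that RefSeq gives (table of build GRCm38.p6), and each was matched exactly, at 1 place, to NCBIM37 (mm9), the build of the files. Capitals mark matches to 1 of 4 motifs searched on either strand. They were the half-site of NFI factors, TTGGC. For SOX factors the letters ACAAAG were searched. The STAT motif was spelled TTCNNNGAA. The TATA box was spelled TATAAA, and a match on the other strand is printed as its reverse complement. No match of one motif overlaps a match of another in these windows. Gfap is printed at chr11:102758465-102758764 (minus strand), Slc1a2 at chr2:102546345-102546644 (plus strand) and Slc1a3 at chr15:8660758-8661057 (minus strand), all 5′ to 3′ along the gene.
Gfap: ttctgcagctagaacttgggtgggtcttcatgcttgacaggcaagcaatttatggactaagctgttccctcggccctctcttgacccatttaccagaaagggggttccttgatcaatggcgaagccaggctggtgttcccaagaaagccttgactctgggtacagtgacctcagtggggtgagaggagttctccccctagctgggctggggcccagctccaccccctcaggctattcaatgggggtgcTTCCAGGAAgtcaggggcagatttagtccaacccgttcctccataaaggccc
Slc1a2: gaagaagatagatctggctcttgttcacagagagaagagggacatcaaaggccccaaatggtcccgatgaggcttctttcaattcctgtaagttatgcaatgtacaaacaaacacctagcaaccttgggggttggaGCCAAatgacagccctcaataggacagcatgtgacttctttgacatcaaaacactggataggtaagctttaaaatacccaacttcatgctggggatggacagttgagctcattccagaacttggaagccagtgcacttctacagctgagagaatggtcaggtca
Slc1a3: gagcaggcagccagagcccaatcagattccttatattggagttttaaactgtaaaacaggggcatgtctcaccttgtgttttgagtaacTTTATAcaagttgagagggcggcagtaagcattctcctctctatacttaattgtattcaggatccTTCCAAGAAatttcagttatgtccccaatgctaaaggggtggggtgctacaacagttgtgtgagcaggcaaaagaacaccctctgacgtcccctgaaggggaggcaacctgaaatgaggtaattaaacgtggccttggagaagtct
Gfap held 1 STAT match, Slc1a2 held 1 NFI half-site, and Slc1a3 held 1 STAT match and 1 match to the letters TATAAA on the other strand. Promoter windows were found for 9 of the 10 genes, all but Aqp4, and only the 3 printed ones were matched to NCBIM37. An NFI half-site was found in 4 of these 9 genes and in 46.7% of 32851 windows in the RefSeq table. A STAT motif was found in 3 of the 9 (Acsbg1, Gfap and Slc1a3) and in 8.3% of all windows. The SOX motif was found in 0 of the 9 against 18.7%, and the letters TATAAA in 1 of the 9 against 13.6%. A gene was counted if any of its windows held the motif, and Slc4a4 had more than 1, while the percentages are shares of single windows. These letters describe the windows only. The windows of Gfap and Slc1a2 lie inside the annotated genes, downstream of the most distant annotated start of each gene.

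The first comparison asked how much of each astrocyte transcript was left in the sorted Arc-dVenus+ cells. All 10 genes were lower in every pool than in every bulk-tissue library, an arrangement that 21.4% of all tested genes showed. By edgeR's quasi-likelihood test with Benjamini-Hochberg adjustment over all tested genes, 8 of the 10 fell (a log2 fold change below -1 at an adjusted p under 0.05) and 0 rose. Over all tested genes 6.58% fell and 3.13% rose. Gjb6 and Aldh1l1 did not pass. The median log2 fold change of the 10 genes was -4.80, and that of all tested genes was 0.10. The split of calls over all genes depended on the scaling, with 822 genes fallen and 391 risen in the main fit, against 1024 fallen and 145 risen when libraries were scaled by their totals alone. The same 8-of-10 count was found for the astrocyte genes with either scaling.

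**Figure D1:**
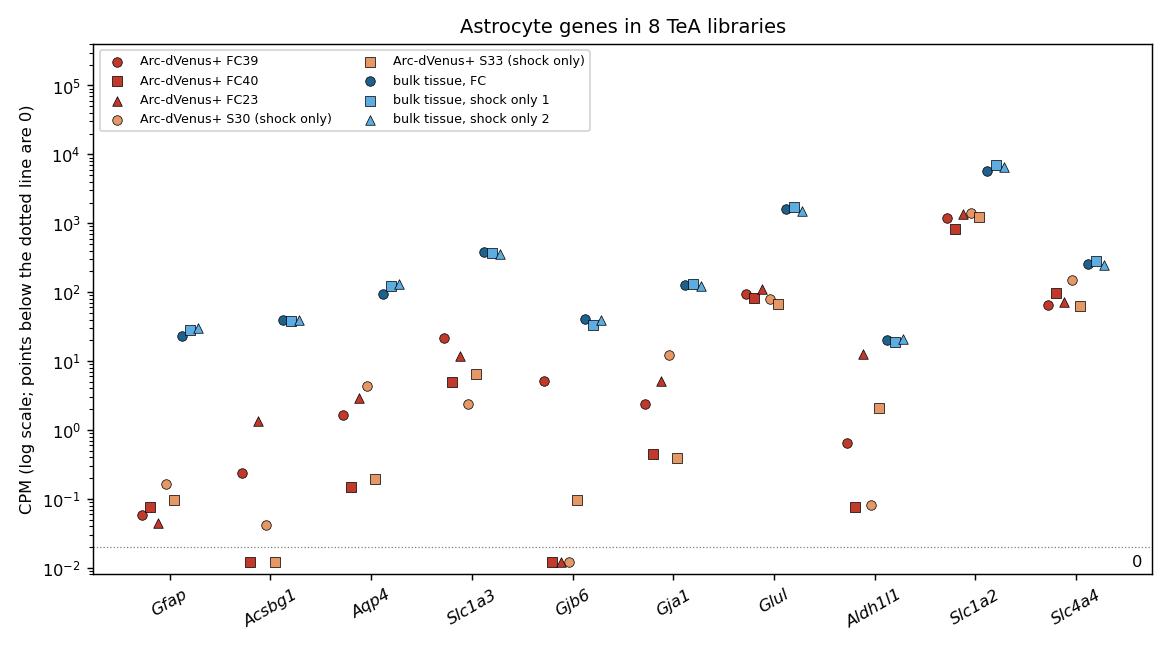
CPM of the 10 astrocyte genes in each of the 8 libraries, on a log axis, with pools in red (FC) and orange (shock only) and bulk tissue in blue. Each point is 1 library, and points under the dotted line are 0 CPM. Genes run from the lowest to the highest mean residual level in the pools. In every gene the 3 blue points lie above all 5 pools.

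The glutamate transporter gene Slc1a2 had the highest level of the 10 per kilobase of annotated exon, with a mean of 91.6 CPM per kilobase in the pools and 490 in bulk tissue. The gene lies on chromosome 2 from 102498816 to 102630941 (GENCODE M1 on NCBIM37), and the counted transcript was NM_001077514. Its level was 5818, 7010 and 6509 CPM in bulk tissue (FC, then both shock-only mice). In the pools it was 1183 CPM in FC39, 839 in FC40, 1368 in FC23, 1418 in S30 and 1215 in S33. The pools therefore kept 13.02% to 22.0% of the bulk-tissue mean, with FC40 lowest, and the range among pools was narrow beside the gap to bulk tissue. Slc1a2 fell 4.47-fold (log2 fold change -2.16, SE 0.16, adjusted p = 5.67e-05 by edgeR). A processed transcript is annotated on the other strand of Slc1a2.

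Slc1a3, the other glial glutamate transporter (chromosome 15, 8584124 to 8660764), kept far less. It stood at 383, 370 and 364 CPM in bulk tissue. The pools held 21.7 CPM in FC39, 5.03 in FC40, 11.8 in FC23, 2.36 in S30 and 6.55 in S33. FC39 was the highest pool and S30, the deepest library, was the lowest, with 57 counts. Slc1a3 fell 33.2-fold (log2 fold change -5.05, SE 0.57, adjusted p = 0.000279 by edgeR), and the pools kept 2.55% ± 2.06 (SD, n = 5) of the bulk-tissue mean.

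Glul, which makes glutamine from glutamate and ammonia, had the most even residue of the 10 genes. The gene lies on chromosome 1 from 155747074 to 155756853. It was measured at 1587, 1706 and 1522 CPM in bulk tissue and at 94.5, 82.8, 109, 79.4 and 67.9 CPM in FC39, FC40, FC23, S30 and S33. Each pool kept 4.23% to 6.82% of the bulk-tissue mean. Its fall of 15.5-fold carried the smallest adjusted p of the 10 genes (log2 fold change -3.95, SE 0.16, adjusted p = 1.78e-06 by edgeR). An annotated gene on the same strand, A930039A15Rik, and 2 on the other strand overlap Glul, and no source used here says whether counting used strand.

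Aqp4, the water channel of the endfoot membrane (chromosome 18, 15547903 to 15562193), was at 94.2, 122 and 132 CPM in bulk tissue. The pools held 28 counts in FC39, 2 in FC40, 64 in FC23, 106 in S30 and 2 in S33, which is 0.150 to 4.39 CPM. FC40 and S33 were thus near the limit of detection and the other pools were not. Aqp4 fell 50.0-fold (log2 fold change -5.64, SE 0.87, adjusted p = 0.00179 by edgeR).

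Gja1 encodes connexin 43, the main connexin of astrocyte gap junctions, and lies on chromosome 10 from 56097106 to 56110225. Bulk tissue held 128, 132 and 121 CPM. The pools held 2.35 CPM in FC39, 0.450 in FC40, 5.07 in FC23, 12.1 in S30 and 0.391 in S33. S30 alone supplied 59.4% of the summed CPM of the pools, and FC40 and S33 were again the lowest. Gja1 fell 25.2-fold (log2 fold change -4.66, SE 0.92, adjusted p = 0.00696 by edgeR). Without S30 the fall was 46.7-fold (adjusted p = 0.0023).

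Gjb6 encodes connexin 30, which shares astrocyte gap junctions with connexin 43, and lies on chromosome 14 from 57742140 to 57752448. It was at 40.5, 33.9 and 39.1 CPM in bulk tissue. In the pools FC39 held 88 counts (5.17 CPM), S33 held 1 count, and FC40, FC23 and S30 held 0, where 3 counts would be 0.225, 0.136 and 0.124 CPM. A single pool thus held 88 of the 89 counts of Gjb6 in sorted cells. The log2 fold change was -4.95 with an SE of 1.69, and Gjb6 did not pass the test (adjusted p = 0.0867 by edgeR). Without FC39 it passed (adjusted p = 0.000594). The other 4 pools then held 1 count against 911 in bulk tissue, a ratio of 2156 between TMM-scaled libraries with a 95% counting interval of 386 to 85231. Intervals and limits of this kind cover counting error only, since amplified reads are not independent molecules.

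Gfap, the intermediate filament protein of astrocytes, was nearly missing from the pools. The gene lies on chromosome 11 from 102748650 to 102762226, and a long non-coding RNA gene overlaps it on the other strand. It stood at 23.1, 27.9 and 30.1 CPM in bulk tissue. Sorted cells gave 1 count in FC39, 1 in FC40, 1 in FC23, 4 in S30 and 1 in S33. All pools were therefore within a few counts of 0, and Gfap had the lowest mean residue of the 10 genes at 0.327% ± 0.175 (SD, n = 5). By the median over the pools, Gjb6 (0%) and Acsbg1 (0.106%) were lower than Gfap (0.277%). The fitted fall was 229-fold (log2 fold change -7.84, SE 0.73, adjusted p = 0.000104 by edgeR), and the ratio of summed counts between TMM-scaled libraries was 246 with a 95% counting interval of 124 to 571.

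At the other end stood Slc4a4, the electrogenic sodium bicarbonate cotransporter NBCe1, which regulates pH in and around astrocytes (chromosome 5, 89315843 to 89668678). Bulk tissue held 253, 283 and 244 CPM. The pools held 64.5 CPM in FC39, 97.7 in FC40, 71.7 in FC23, 149 in S30 and 62.6 in S33. S30 was highest, at 57.2% of the bulk-tissue mean, and the pools together kept 34.3% ± 13.9 (SD, n = 5), the largest residue of the 10 genes. Slc4a4 fell 2.42-fold (log2 fold change -1.28, SE 0.30, adjusted p = 0.0172 by edgeR). That call was lost when any 1 bulk-tissue library was left out (adjusted p = 0.0719 without the FC library, 0.0860 without the first shock-only library and 0.0611 without the second).

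The metabolic genes were low and uneven in the pools. Aldh1l1 encodes the cytosolic 10-formyltetrahydrofolate dehydrogenase of one-carbon metabolism and is a widely used astrocyte marker (chromosome 6, 90436421 to 90550197). It was at 20.4, 18.8 and 20.7 CPM in bulk tissue. In the pools it was at 0.646 CPM in FC39, 0.0751 in FC40, 12.6 in FC23, 0.0828 in S30 and 2.05 in S33, so that FC23 held 279 of the 314 counts. Aldh1l1 had a log2 fold change of -2.42 (SE 1.34) and did not pass (adjusted p = 0.309 by edgeR). Without FC23 the difference was 23.8-fold (log2 fold change -4.58) and passed (adjusted p = 0.0299). A processed transcript is annotated on the other strand of Aldh1l1.

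Acsbg1 encodes an acyl-CoA synthetase that activates long-chain fatty acids (chromosome 9, 54452684 to 54509677). Its bulk-tissue levels were 39.1, 38.3 and 39.4 CPM, the tightest of the 10 genes. Counts in the pools were 4 in FC39, 0 in FC40, 30 in FC23, 1 in S30 and 0 in S33. FC23 was again the highest pool, with 83.1% of the summed CPM. Acsbg1 fell 92.2-fold (log2 fold change -6.53, SE 1.25, adjusted p = 0.00614 by edgeR), and 389-fold without FC23 (log2 fold change -8.60).

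**Figure D2:**
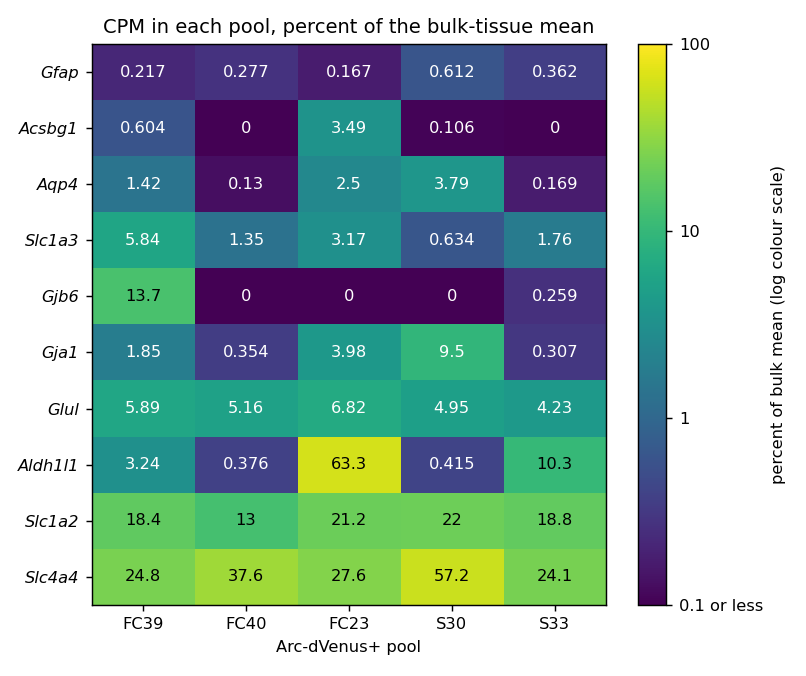
CPM of each gene (rows) in each pool (columns) as a percent of the mean of the 3 bulk-tissue libraries, with the value printed in each cell and a log colour scale. Glul, Slc1a2 and Slc4a4 have a similar colour across their rows, while the high cells of Gjb6 (FC39, 13.7%), Aldh1l1 (FC23, 63.3%) and Gja1 (S30, 9.50%) lie in different columns.

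The pool with the highest CPM thus differed from gene to gene, and the median residue differed between pools as well. S30 had the highest CPM of 5 genes (Slc1a2, Aqp4, Gja1, Gfap and Slc4a4), FC23 of 3 (Glul, Aldh1l1 and Acsbg1) and FC39 of 2 (Slc1a3 and Gjb6). FC40 and S33 were highest for 0 genes. The median residue over the 10 genes was 4.54% of bulk tissue in FC39, 3.74% in FC23, 2.21% in S30, 1.06% in S33 and 0.365% in FC40. In FC40, 5 of the 10 genes had 3 counts or fewer, against 1 of the 10 in FC39. Bulk-tissue libraries were alike by comparison, with the highest library 1.03 to 1.40 times the lowest for each gene.

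Ratios between genes within a library do not depend on how libraries are scaled, and they showed the same unevenness. There were 0.333 to 0.357 counts of Gja1 per count of Slc1a3 in bulk tissue. In the pools this ratio was 0.108 in FC39, 0.0896 in FC40, 0.429 in FC23, 5.12 in S30 and 0.0597 in S33, so that it lay on both sides of bulk tissue. Gjb6 had 2.2 counts per count of Gja1 in FC39, above every bulk-tissue library. The ratio of Slc1a2 to Slc1a3 moved one way in every pool: it was 15.2 to 19.0 in bulk tissue and 54.4, 167, 116, 601 and 185 in FC39, FC40, FC23, S30 and S33. Slc1a2 to Glul likewise rose above the bulk-tissue range of 3.67 to 4.28 in all 5 pools, to between 10.1 and 17.9.

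**Figure D3:**
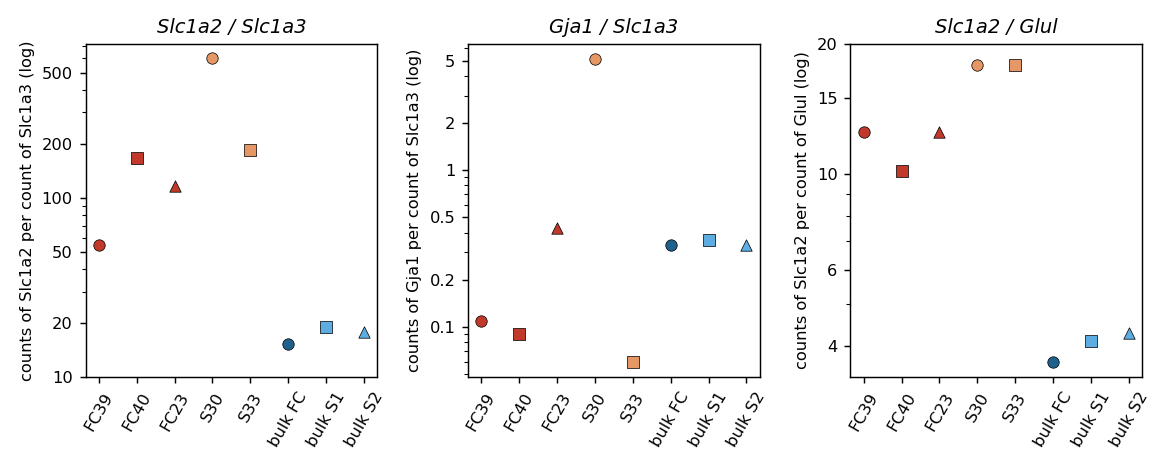
Counts of 1 astrocyte gene per count of another in each library (log axes), with pools in red (FC) and orange (shock only) and bulk tissue in blue. Slc1a2 per Slc1a3 and Slc1a2 per Glul are higher in all 5 pools than in all 3 bulk-tissue libraries, whereas Gja1 per Slc1a3 lies above bulk tissue in FC23 and S30 and below it in FC39, FC40 and S33.

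Whether genes differed in how far they fell was tested for all 45 pairs by the within-library log2 ratio, with a two-sided exact permutation test, which has 56 arrangements of 5 pools and 3 bulk-tissue libraries. With Benjamini-Hochberg adjustment over the 45 pairs, 0 pairs passed, and 15 had an unadjusted p under 0.05. The smallest p was reached by 10 pairs and is the smallest that the design allows (p = 0.0179, adjusted p = 0.0804, exact permutation test). Slc1a2 was kept more than Slc1a3 by 3.24, than Glul by 1.79, than Aqp4 by 4.41, than Gfap by 5.46 and than Acsbg1 by 5.76 on the log2 scale. Slc4a4 was kept more than Glul by 2.60, than Slc1a3 by 4.05, than Aqp4 by 5.22 and than Gfap by 6.27. Glul was kept more than Gfap by 3.67. The order of mean residual levels ran from Gfap through Acsbg1, Aqp4, Slc1a3, Gjb6, Gja1, Glul, Aldh1l1 and Slc1a2 to Slc4a4. Neighbouring pairs in this order had an adjusted p from 0.146 to 0.934 (exact permutation test). The 56 arrangements allow no unadjusted p below 0.0179 in this test. A pair alone at that p could not pass the adjustment over 45 pairs, however large its difference. The count of 0 passed pairs therefore does not show that the genes fell alike. The log2 ratios of neighbours overlapped between pools and bulk tissue except for Slc1a2 to Slc4a4, which was 3.10 to 4.28 in the pools and 4.52 to 4.74 in bulk tissue (unadjusted p = 0.0714, exact permutation test). The residual order was not the order of bulk-tissue CPM per kilobase of annotated exon. That length joins all annotated exons of a gene and may differ from the length of the counted transcript variant. The values were 490 for Slc1a2, 482 for Glul, 43.6 for Slc1a3, 41.0 for Gja1 and 24.04 for Slc4a4. They were 21.8 for Aqp4, 16.7 for Gjb6, 10.8 for Acsbg1, 6.41 for Gfap and 4.43 for Aldh1l1. Glul and Slc1a2 were thus nearly equal by this measure in tissue and kept 5.41% and 18.7% in the pools.

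Other astrocyte markers were also low in the pools. Of 40 tested markers outside the 10 genes, 27 fell and 0 rose, with a median log2 fold change of -4.10. The summed level of all 41 listed markers was 857 to 1189 CPM in the pools and 5975 to 6512 CPM in bulk tissue. Aldoc, a glycolytic aldolase of astrocytes, was at 27.4 ± 11.6 CPM (SD, n = 5) in the pools and 516 ± 32.8 (SD, n = 3) in bulk tissue (-3.97 on the log2 scale, adjusted p = 5.67e-05 by edgeR). The calcium-binding protein gene S100b fell (log2 fold change -3.48, adjusted p = 0.0164 by edgeR). Sox9, a transcription factor of astrocytes, missed the threshold (-1.76 on the log2 scale, adjusted p = 0.37 by edgeR), and FC39 held 70.8% of its summed CPM in the pools. FC39 was the highest pool for 16 of the 41 listed markers, S30 for 9, FC23 for 7, FC40 for 4 and S33 for 3, while Cbs and Slc14a1 had no count in any pool. When 1 bulk-tissue library was left out, 17 to 19 of the 40 fell.

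**Figure D4:**
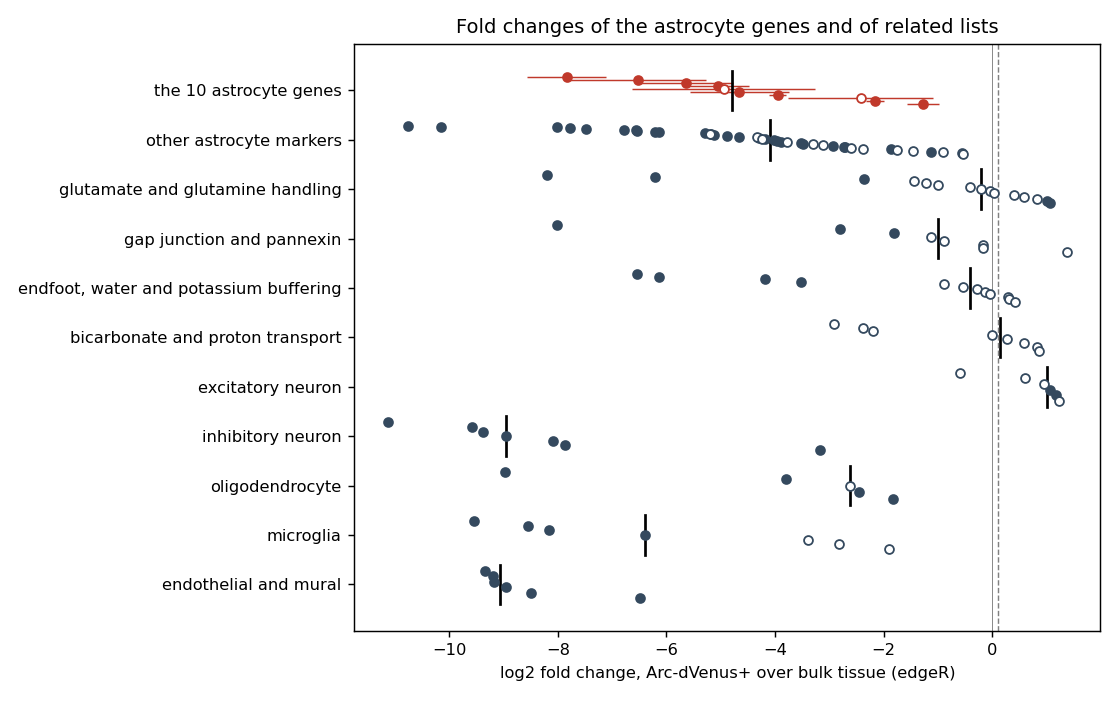
Log2 fold changes of Arc-dVenus+ cells over bulk tissue by edgeR for the 10 astrocyte genes (red, bars give the SE) and for the genes of related lists (blue), with filled points for genes that fell or rose and open points for the rest. Black ticks are list medians and the dashed line is the median of all tested genes (0.10); the 10 genes span -7.84 to -1.28, and points far to the left rest on few or 0 counts in the pools.

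Genes that share a pathway with the 10 did not fall as a block. Of 15 tested genes of glutamate and glutamine handling, 3 fell and 2 rose, with a median log2 fold change of -0.21. Those that fell were Slc38a3, a glutamine exporter of astrocytes (31.2 ± 5.24 CPM, SD, n = 3, in bulk tissue and 0.0791 ± 0.0679, SD, n = 5, in the pools), the glutamate dehydrogenase gene Glud1 (log2 fold change -2.36, adjusted p = 0.0111 by edgeR) and the mitochondrial glutamate carrier gene Slc25a18 (log2 fold change -6.22, adjusted p = 0.0177 by edgeR). Those that rose were Slc17a7 (log2 fold change 1.06, adjusted p = 0.0011 by edgeR) and the mitochondrial aspartate aminotransferase gene Got2 (log2 fold change 1.01, adjusted p = 0.0258 by edgeR). Neither of the pair reached the fold threshold when libraries were scaled by their totals, where 0 rose and 4 fell. With 1 library left out 2 to 4 of the 15 fell and 0 to 2 rose, and 0 rose without FC23. Slc1a1, which encodes the glutamate transporter of neurons (EAAC1), was at 81.8 ± 43.0 CPM (SD, n = 5) in the pools and 112 ± 6.53 (SD, n = 3) in bulk tissue and missed the threshold, at a log2 fold change of -0.21 and an adjusted p of 0.806 by edgeR. The glutamine transporter genes Slc38a1 and Slc38a2 had log2 fold changes of -0.03 and -0.42 (adjusted p = 0.967 and 0.413 by edgeR).

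Among the other connexin, pannexin and junction genes, 3 of 8 tested fell and 0 rose, with a median log2 fold change of -1.004. These were Gjb2 (connexin 26, log2 fold change -8.03, adjusted p = 0.00181 by edgeR), Gjc3 (a glial connexin, 75.4 ± 23.1 CPM, SD, n = 5, against 628 ± 38.0, SD, n = 3, adjusted p = 6.61e-05 by edgeR) and Gje1 (log2 fold change -1.80, adjusted p = 0.00387 by edgeR). Gjd2, the connexin of neuronal electrical synapses, was at 1.71 ± 1.15 CPM (SD, n = 5) against 3.82 ± 3.22 (SD, n = 3) and did not pass (adjusted p = 0.667 by edgeR).

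Of 12 tested endfoot, water and potassium genes, 4 fell and 0 rose, with a median log2 fold change of -0.40. Kcnj10, the inward rectifier Kir4.1, fell (7.46 ± 4.61 CPM, SD, n = 5, against 163 ± 26.9, SD, n = 3, adjusted p = 0.000234 by edgeR). The endfoot membrane protein genes Mlc1 (log2 fold change -6.55, adjusted p = 0.0208 by edgeR) and Hepacam (log2 fold change -6.15, adjusted p = 0.019 by edgeR) fell as well. All the counts of Mlc1 in the pools were in FC40, and 94.7% of the summed CPM of Hepacam was in FC39. Atp1b2, which encodes a beta subunit of the sodium pump, had a log2 fold change of -0.53 and did not pass (adjusted p = 0.294 by edgeR). When 1 bulk-tissue library was left out, 2 of the 12 fell.

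Of 8 tested bicarbonate and proton transport genes related to Slc4a4, 0 fell and 0 rose by edgeR, with 2 at an unadjusted p under 0.05, while 1 fell by DESeq2 and 1 by limma voom. Their median log2 fold change was 0.14. The lactate transporter gene Slc16a1 (log2 fold change -2.92, adjusted p = 0.131 by edgeR), the anion exchanger gene Slc4a2 (-2.38, 0.458) and the carbonic anhydrase gene Car2 (-2.19, 0.301) were lower in every pool than in every bulk-tissue library but missed the threshold. These 3 are named after their values were seen. Slc4a10, a bicarbonate transporter of neurons, was at 442 ± 82.5 CPM (SD, n = 5) in the pools and 298 ± 14.3 (SD, n = 3) in bulk tissue, with an adjusted p of 0.00924 by edgeR and a log2 fold change of 0.83, under the fold threshold. Slc4a8, another neuronal member of the family, had 0.28 (adjusted p = 0.662 by edgeR).

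Of 11 tested folate and acyl-CoA genes, Acsbg2 (log2 fold change -1.97, adjusted p = 0.0147 by edgeR) and Acsl6 (log2 fold change -1.19, adjusted p = 0.0273 by edgeR), which encode acyl-CoA synthetases as Acsbg1 does, fell and 0 rose, with a median log2 fold change of -0.73. When any 1 bulk-tissue library was left out 0 of the 11 fell, and without FC39 or without S30 1 fell. Of 8 tested filament genes beside Gfap, Vim (vimentin, log2 fold change -7.48, adjusted p = 0.0028 by edgeR) and Nes (nestin, log2 fold change -6.04, adjusted p = 0.021 by edgeR) fell, and 1 of the 8 fell when any 1 bulk-tissue library was left out. The filament genes that rose were Ina (log2 fold change 2.58), Nefl (2.03) and Nefm (2.71), which encode filaments of neurons.

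Markers of other cell types were low in the pools as well. Of 5 tested oligodendrocyte markers 4 fell, and the list summed to 28.03 to 75.8 CPM in the pools against 359 to 385 in bulk tissue, while 2 of the 5 fell when any 1 bulk-tissue library was left out. Of 5 oligodendrocyte precursor markers 3 fell (3.17 to 13.2 CPM against 125 to 145). Of 7 tested microglial markers 4 fell. The summed level of all 8 listed varied most, from 0.248 CPM to 65.4 CPM with the maximum in S33, against 227 to 261 in bulk tissue. That maximum rested mainly on Csf1r (336 counts in S33) and C1qb (303 counts). Cx3cr1 was highest in FC40 (140 counts), and C1qa had 0 counts in every pool. All 6 tested endothelial and mural markers fell. The 8 listed ones summed to 191 to 222 CPM in bulk tissue and to between 0.0905 and 2.00 CPM in the pools. S33, the highest pool for the summed microglial level, was the highest for 0 of the 10 astrocyte genes. The part of transcripts from other cells in the residue of any astrocyte gene was not tested.

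The second comparison asked whether the residue differed between FC and shock-only pools. By edgeR's quasi-likelihood test 0 of the 10 genes passed, and 0 had an unadjusted p under 0.05. Over all 12493 genes 0% passed, with 793 genes at an unadjusted p under 0.05; 147 genes passed by DESeq2, 7 by edgeR's exact test and 0 by limma voom, with 0 of the 10 genes among them by any of these tools. Slc1a2 had the best determined difference, a log2 fold change of -0.29 (FC over shock only, SE 0.24, adjusted p = 0.871 by edgeR). FC and shock-only pools did not overlap for 2 of the 10 genes, close to the share of 21.2% over all tested genes. They were Glul, at 82.8 to 109 CPM in the 3 FC pools and 67.9 to 79.4 in the 2 shock-only pools (log2 fold change 0.31), and Gfap, where the pools differed by at most 3 counts. For Gjb6 the log2 fold change was 5.11 with an SE of 3.39 and rested on FC39, and for Gja1 it was -1.32 with an SE of 1.66 and rested on S30.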

How the data were processed

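The 8 RNA-Seq libraries (5 Arc-dVenus+ pools and 3 of bulk TeA) came from 1 animal each. Reads were mapped by the authors with RUM (mm9), those with a unique alignment were counted for 1 transcript variant a gene, and the raw counts were deposited. The authors also deposited CPM values, which match counts divided by library totals to within 0.0005 CPM. The authors' fold and p-value columns and their 4 sheets of selected genes were not used. No column of another sample was found.

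Genes with at least 20 CPM summed over the 8 libraries (12493 of 15437) were tested on counts with edgeR 4.0.16 (TMM scaling, quasi-likelihood test, R 4.3.3), with FC and shock only pooled, and Benjamini-Hochberg adjustment. The fit was tested on simulated data. The SE given with an edgeR log2 fold change is its absolute value divided by the square root of the test's F statistic. Calls needed an adjusted p under 0.05 and, against bulk tissue, a 2-fold change. Gene pairs were compared on log2 CPM with 0.5 added to counts. Positions come from GENCODE M1 (NCBIM37). DESeq2 1.42.0, limma 3.58.1 (voom), the exact test, other scalings and minimums, and each library left out were alternatives.

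Named genes are the 10, up to 4 genes with the lowest p and every gene that rose in each of 13 companion lists (fewer are named of markers of other cell types), a set of companions picked by hand, and the 5 genes most like the 10 in pattern. Some genes that meet the rule are not reported here. The members and lists were chosen with earlier results of these data known. The libraries come from separate animals, and no 2 libraries agreed within sampling noise. Total counts (7110598 to 24151755) set the precision. In the pools together 3 counts are 0.0346 CPM.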

Additional observations from a re-analysis of the deposited data

Results flagged for a closer look

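In each of the following genes 1 of the 5 pools stood far above the other 4, by Dixon's test of the gap to the nearest pool over the whole range. Gjb6 was at 5.17 CPM in FC39, Aldh1l1 at 12.6 CPM in FC23 and Acsbg1 at 1.36 CPM in FC23. Chance flags about 1 in 20 groups if values are normally distributed, which was not tested for these pools. Such a pool was found in 3 of the 10 genes, while the other 7 had none. The share over all tested genes is not given here, so this count is not read as particular to the 10 genes.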

How the results depend on the processing

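The number of the 10 genes that fell was 7 to 9 when 1 library was left out, and 0 with shock-only libraries alone, where 2 pools were set against 2 bulk-tissue libraries and 8 of the 10 had an unadjusted p under 0.05. Log2 fold changes of the 10 genes against bulk tissue kept their direction under all 17 alternatives, with 11 calls lost (7 other genes and Slc4a4 with shock-only libraries alone, and Slc4a4 without each bulk-tissue library) and 5 gained: Gjb6 by edgeR's exact test (adjusted p = 0.0435), limma voom (0.00437) and without FC39, and Aldh1l1 by limma voom (0.0318) and without FC23. Over all genes, 1577 fell with no minimum, 1478 with at least 5 counts in at least 3 libraries, 0 with shock-only libraries alone and 465 to 960 with 1 library left out, against 822. Genes that rose numbered 649 by DESeq2, 248 by limma voom, 145 with library totals, 0 with shock-only libraries alone and 199 to 608 with 1 library left out, against 391. Between FC and shock-only pools, 147 genes passed by DESeq2, 7 by the exact test and 0 to 1 with 1 pool left out. With 1 pool left out, the FC over shock-only log2 fold change ranged from -1.56 to 2.90 for Aqp4, -2.27 to 2.67 for Gja1 and -1.01 to 0.26 for Slc4a4 (positive without S30), from -2.73 (without FC39) to 7.99 for Gjb6 and from -1.60 (without FC23) to 5.59 for Aldh1l1. With TMM-scaled totals the residue was 22.4% for Slc1a2 and 6.45% for Glul. The cause of these differences was not tested. No paired analysis was possible because only the 2 shock-only bulk-tissue samples carry replicate numbers in their labels. Gfap, Gjb6 and Acsbg1 had at most 4 counts in at least 4 of the 5 pools.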

Other observations

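Over the 8 libraries, the genes whose log2 CPM followed the mean pattern of the 10 genes most closely were Cxcl14 (r = 0.996), Slc25a18 (r = 0.995), Fmo1 (r = 0.995), Car8 (r = 0.995) and 4933407H18Rik (r = 0.994). These values describe libraries that form 2 separate groups, pools and bulk tissue, so that any gene low in all pools has a high r. Cxcl14, which encodes a chemokine, stood at 0.282 ± 0.438 CPM (SD, n = 5) in the pools and 23.8 ± 2.16 (SD, n = 3) in bulk tissue. Fmo1 stood at 0.234 ± 0.159 CPM in the pools and 13.4 ± 1.05 in bulk tissue, and Car8, a carbonic anhydrase-related protein gene, at 0.839 ± 0.753 against 33.01 ± 6.32. The gene 4933407H18Rik differed from these in its even residue, with 15.5 ± 0.926 CPM in the pools and 91.7 ± 0.993 in bulk tissue.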
